A study of Homo sapiens with 5 samples.

Results

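The mRNAs described here are IRX4, ZNF335, CPNE1, SOCS6, DELE1 (KIAA0141 in the study), WASHC3 (CCDC53 in the study), PECR and COX15. They are 8 of 20176 annotated protein-coding genes, and are the transcripts that the study ranked or designed primers for besides its leading targets. The study chose them with these peak lists in hand, so that they hold peaks is how they were selected and not a result. All rows of both lists that overlap their hg19 gene bodies were taken, which gave 9 peaks of the Odd list, 0.994% of it, and 16 of the 8626 peaks of the Even list, 0.185% of it.

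The lists come from a pull-down of the noncoding RNA SNHG5 out of HCT116, a human colorectal carcinoma cell line, after the cells were cross-linked with glutaraldehyde. Biotinylated DNA oligonucleotides antisense to SNHG5 were used in 2 separate pools, Odd and Even, and the retrieved RNA was sequenced. The Odd list was called on 2 Odd libraries together and the Even list on 1 Even library, each against the same 2 control libraries, which the labels call INPUT and the methods call a luciferase pool. All groups share the cell line and its genotype. Apart from the cross-linking, the sample titles and the methods name no treatment of these cells, and no SNHG5-depleted cells are among them. Duplicates were limited to 3 tags per position for Odd and the control and to 2 for Even, which removed most tags. Of 150214135 Odd tags 4904959 remained (3.27%), and of 55933565 Even tags 1965614 (3.51%). Of 114945178 control tags 3986040 remained. No list holds a value per library, so no test between the pools was possible and every interval below is an exact 95% interval for counting error only. PCR reads without molecular identifiers are not independent molecules, so the true error may be larger than these intervals.

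An RNA pull-down retrieves the bait RNA with whatever was cross-linked to it, and also any RNA that an oligonucleotide binds directly. For that reason such experiments use interleaved pools with no oligonucleotide in common, and give more weight to a region found with both. SNHG5 is a cytoplasmic host gene transcript of small nucleolar RNAs. An mRNA that pairs with SNHG5 would carry letters complementary to it, whereas an mRNA that pairs with an antisense oligonucleotide would carry the same letters as SNHG5 itself.

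All 9 Odd peaks in these genes had, on 1 strand within 250 nt of the summit, the same run of 8 letters as SNHG5. In 8 of them this was the strand of the mRNA, and in COX15 the mRNA holds the complement. The run, GAGGCCAG, lies at positions 295 to 302 of an 818-nt spliced SNHG5 transcript, counted from 1 at its 5′ end, in exon 5 of 9. This is a longer annotated form than the 6-exon transcript that the methods name, which has 451 nt in the annotation and holds the run at positions 299 to 306. The last 3 exons of the longer form lie outside that transcript, and whether HCT116 cells express them was not analysed here. It was found by asking which 8-nt run of that transcript occurs, on either strand, at the most of the 9 summits. It was thus chosen after the sequences were seen, and its count at these summits is a description. The sequences are shown because they carry this observation. They were read from GRCh37, 5′ to 3′, on the strand that reads as SNHG5 does, with the run in capitals.

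SNHG5: gcccattgataGAGGCCAGattgtcttgga
IRX4: tcggagcagaaGAGGCCAGataccctgaag
ZNF335 exon 12: cacaggaagaaGAGGCCAGatccggtgagt
ZNF335 exon 10: cctgggcaagaGAGGCCAGgttgggtgggg
CPNE1: ccatggaggtaGAGGCCAGaaacctagata
SOCS6: gaaatatgatgGAGGCCAGaagctattttt
DELE1: gtcccaaagaaGAGGCCAGatacccaccca
WASHC3: ttttcttttagGAGGCCAGatgctccagtg
PECR: ttgtaaaggtaGAGGCCAGacgcagtggct
COX15: tctaccatcgaGAGGCCAGactctgtcaac

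The SNHG5 stretch is chr6:86387166-86387195 on the minus strand. The IRX4 stretch is chr5:1877807-1877836 on the minus strand, in the 3′ UTR. The ZNF335 stretches are chr20:44589497-44589526 and chr20:44590657-44590686, both on the minus strand. Both are named by the exon of the Odd summit. In the first the run is in coding exon 11, which has 19 nt, and in the second it lies in an intron beside exon 10. The CPNE1 stretch is chr20:34220090-34220119 on the minus strand, in coding sequence. The SOCS6 stretch is chr18:67996302-67996331 and the DELE1 stretch is chr5:141319181-141319210, both on the plus strand and in 3′ UTRs. The WASHC3 stretch is chr12:102406952-102406981 on the minus strand, where the run begins with the first base of exon 7, in coding sequence. The PECR stretch is chr2:216903631-216903660 on the minus strand, in the 3′ UTR. The COX15 stretch is chr10:101487291-101487320 on the plus strand, which is the antisense strand of COX15, in coding exon 3.

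In 8 of the 9 windows the run was on the sense strand of the gene, the strand of the mRNA. COX15 was the exception, with the run on the opposite strand, so that its mRNA is complementary to SNHG5 at these 8 nt. The peak lists do not give the strand of the reads. The run started 2 nt after the Odd summit in IRX4, 11 nt after it in CPNE1 and 78 nt after it in ZNF335 exon 10, in the direction of transcription. It began 44 nt before the summit in DELE1 and COX15, 62 nt before it in WASHC3, 74 nt before it in PECR, 103 nt before it in SOCS6 and 203 nt before it in ZNF335 exon 12. The Even summits of the same 9 regions also had it within 250 nt.

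The run also lay in the part of SNHG5 that 1 of the listed capture oligonucleotides binds. The study lists 20 oligonucleotides, whose letters were read here from page images, and 16 of them were an exact complement of the 818-nt transcript. A single one of these 16 covered the run. It is 19 nt long and complementary to positions 295 to 313, so that the run pairs with the 8 nt at its 3′ end. A match of at least 8 nt to this oligonucleotide or its complement was at all 9 Odd summits, and each of the other 15 had one at 0 to 5 of the 9, with a median of 1. It is number 15 in the study's list, and the pool that holds it was not analysed here. All 9 regions were found with both pools, and what part a single oligonucleotide has in that was not tested. The run was chosen for its count at these summits, so the 9 of 9 is a description.

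Letters next to the run were shared too. A 9-nt run, GAGGCCAGA, was at 8 of the 9 Odd summits, and a 10-nt run, AGAGGCCAGA, at 6. IRX4, DELE1 and ZNF335 exon 12 shared 11 nt with SNHG5 here, at positions 294 to 304, and CPNE1 shared 11 nt at positions 293 to 303. Among the 805 runs of 9 nt in the SNHG5 transcript, the median run was at 0 of the 9 summits.

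The same run was read across the rest of the data on both strands. GAGGCCAG was in 34.7% of 885 Odd windows of 501 nt, in 12.6% of 852 windows at the best Even peaks (as many of the Even peaks with the smallest p as the Odd list has peaks) and in 5.10% of 135291 consecutive 501-nt stretches of other spliced protein-coding transcripts. It was in 56.1% of the 98 other Odd windows that were shared with the best Even peaks and in 31.2% of the 778 that were not. AGAGGCCAGA was in 32.7% of those 98, in 15.8% of those 778, in 4.16% of the 842 other best Even windows and in 0.328% of the stretches. The run is thus not particular to the 8 genes, and the windows within SNHG5 itself and on sequences outside the reference chromosomes were left out of these counts. Windows overlap where peaks are close together, and no test was made.

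**Figure D1:**
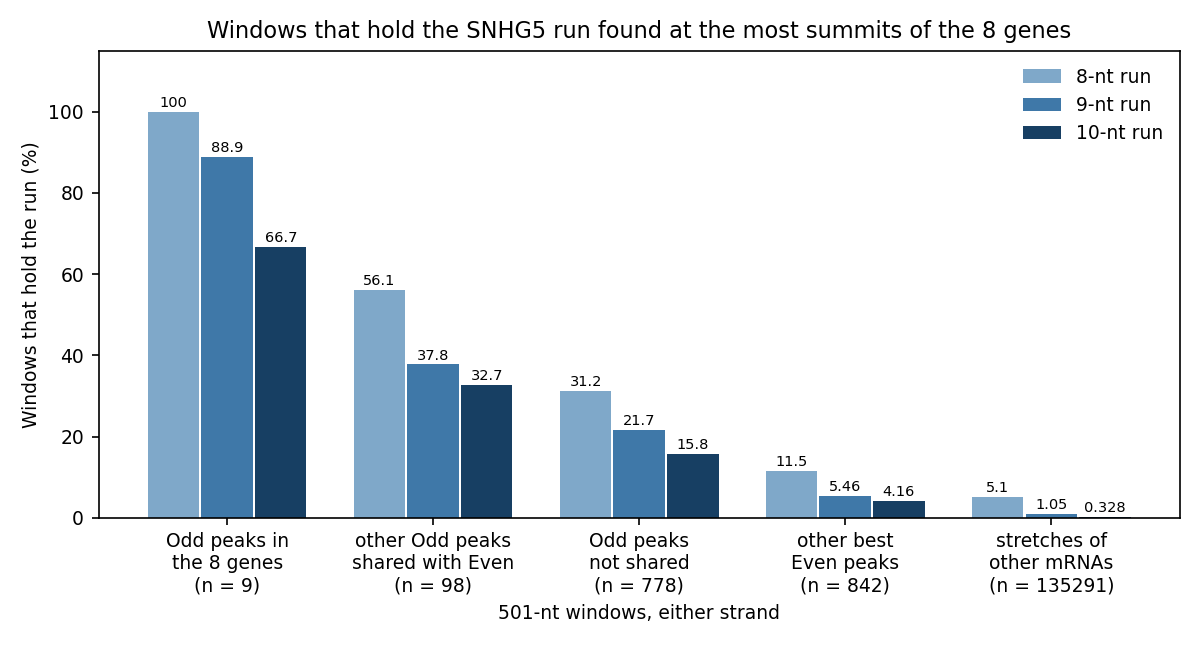
Share of 501-nt windows, in percent, that hold the 8-nt, 9-nt or 10-nt SNHG5 run on either strand, in 5 sets of windows whose number is given under each. All 9 Odd windows in the 8 genes hold the 8-nt run. The run of each length was chosen for its count at these 9 windows, so their bars follow from that choice and are a description. The 8-nt run is in 56.1% of the other shared Odd windows, 31.2% of unshared Odd windows, 11.5% of the other best Even windows and 5.10% of stretches of other mRNAs.

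Along the spliced transcripts of the 8 genes the run was rare, and most of its sense copies lay under peaks. The runs of each length were chosen for their count at these same Odd summits. That copies lie under these peaks largely follows from that choice and is a description. GAGGCCAGA occurred in the sense direction at 1 place in each of IRX4, ZNF335, CPNE1, SOCS6, DELE1, WASHC3 and PECR and at no place in COX15. All 7 of these places lay inside both an Odd and an Even peak. With 8 nt there were 9 sense places, of which 7 lay in an Odd peak. The others were position 394 of the PECR transcript, which lay in no peak, and position 192 of the COX15 transcript, which lay in an Even peak alone. In the antisense direction GAGGCCAG occurred in ZNF335, DELE1 and COX15, and only the COX15 place lay in a peak.

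Over all other protein-coding genes, an Odd peak in an exon was found for 18.9% of the 238 genes whose spliced reference transcript holds AGAGGCCAGA in the sense direction. It was found for 2.56% of the 234 genes that hold it in the antisense direction alone and for 1.79% of the 19696 genes that hold neither. For an Even peak in an exon the shares were 28.2%, 16.7% and 13.0%, and for a best Even peak 4.62%, 2.56% and 1.78%. The contrast was smaller with shorter runs. With the 9-nt run the Odd shares were 10.3%, 1.58% and 1.69%. With the 8-nt run they were 4.59% of 3115 genes, 1.91% of 2517 and 1.47% of 14536. For a best Even peak the 8-nt shares were 2.44%, 1.23% and 1.79%. These are counts over genes, with no test and with no adjustment for transcript length or expression. The part of direct binding by the oligonucleotide that covers the run was not tested.

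Contiguous pairing between both RNAs would use runs complementary to SNHG5. With either of 2 SNHG5 transcripts, their median length was within 1 nt of that over all Odd peaks with an exonic summit. With the 818-nt transcript, the longest complementary run within 250 nt of the 9 Odd summits was 9 nt or 10 nt, and its median was 9 nt. The median over 434 Odd windows with the summit in an exon was 10 nt. With the 451-nt transcript of the methods the order was turned, with 10 nt at the 9 summits and 9 nt over the 434. With all annotated noncoding SNHG5 transcripts the median at the 9 summits was 11 nt, and PECR had 24 nt. No value over the 434 was computed for that choice. Stretches of other mRNAs were not searched for complementary runs, so pairing with SNHG5 was not tested. The longest run shared with SNHG5 in the sense direction had a median of 11 nt at the 9 summits, against 10 nt over the 434, and both values were the same with the 451-nt transcript. With the longer form PECR had the longest, 21 nt, at positions 488 to 508 in exon 7 of SNHG5, 64 nt before the summit. Among the 434 windows 2.07% reached that length. This stretch is not part of the 451-nt transcript, with which the longest run in PECR was 11 nt, and none of the 16 oligonucleotides covered it. In PECR 8.15% of the 48-nt words around the summit occurred elsewhere in GRCh37, the most frequent at 6 places. In IRX4 0.220% did, and in the other 6 genes none did at an Odd summit. Copies with mismatches were not counted.

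**Figure D2:**
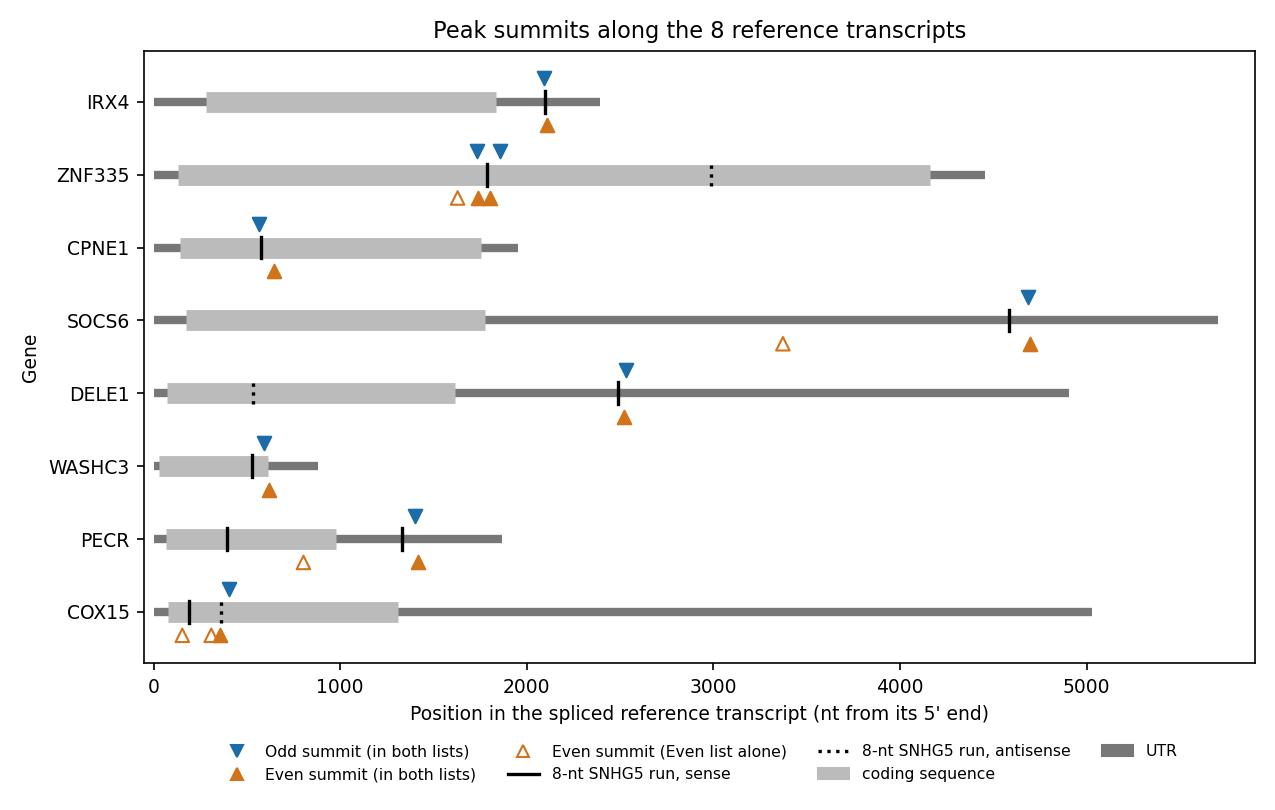
Peak summits on the 8 spliced reference transcripts, drawn to scale in nt from the 5′ end, with coding sequence as the wide bar and UTRs as the narrow bar. Filled triangles are summits of peaks found with both pools, open triangles are Even peaks with no Odd peak, and black lines mark the 8-nt SNHG5 run in the sense (solid) or antisense (dotted) direction. The 4 Odd summits in 3′ UTRs are those of IRX4, SOCS6, DELE1 and PECR, and each sense run lies near a summit except the one in the coding sequence of PECR. The 2 Even summits in WASHC3 introns and the intronic copies of the run in ZNF335 are not drawn.

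Of the 9 Odd summits, 5 lay in coding sequence and 4 in 3′ UTRs, and 5 of the 9 lay in the last exon. None lay in a 5′ UTR or an intron. Of the 16 Even summits, 8 lay in coding sequence, 6 in 3′ UTRs and 2 in introns. The 3′ UTR is counted from the end of the last amino acid codon, as the annotation gives it. Peaks are intervals on the genome, so a peak over several short exons also covers the introns between them.

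At the 3′ UTR sites of this set, the Odd fold enrichment was larger than the Even value in all 4 genes, with counting intervals that overlapped. Fold enrichment is the authors' ratio of the tag pileup at the summit to the local control background. IRX4, an Iroquois homeobox transcription factor, had its Odd peak at 1877492 to 1878216 of chromosome 5, with the summit 259 nt past the coding sequence. It held 266 tags at the summit against 4 control tags, with a fold enrichment of 54.0 (20.9 to 199.8). The Even peak, at 1877446 to 1878639, held 64 tags against 4, with a fold enrichment of 32.5 (12.1 to 122.7). The Odd interval contains the Even value, and with 4 control tags both intervals are wide.

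SOCS6 is a suppressor of cytokine signalling and acts as a substrate adaptor of a ubiquitin ligase. Its Odd peak at 67995999 to 67996760 of chromosome 18 had the smallest p of the 8 genes and ranked 3 in the Odd list by p. It held 570 tags against 6 control tags, a fold enrichment of 77.2 (35.3 to 211.3). Its Even peak at 67996032 to 67996780 held 169 tags against 6 and reached 57.1 (25.7 to 157.8). Both summits lay in the long 3′ UTR, which makes up 68.8% of the transcript, and were 2907 and 2918 nt past the coding sequence. A weak Even peak stood upstream in the same 3′ UTR, at 67994964 to 67995258, with 14 tags against 8 and a fold enrichment of 3.55 (1.39 to 9.76). It ranked 3792 of 8626 by p and had no Odd peak.

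DELE1 relays mitochondrial stress to the integrated stress response. Its Odd peak at 141318887 to 141319723 of chromosome 5 held 330 tags against 9 control tags, a fold enrichment of 29.8 (15.5 to 65.7). Its Even peak at 141318905 to 141319534 held 70 tags against 12 and reached 11.8 (6.36 to 24.0). The summits were 12 nt apart, close to the middle of the transcript, 915 and 903 nt past the coding sequence.

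PECR is a peroxisomal enoyl-CoA reductase of fatty acid chain elongation. It had the largest fold enrichment of the 8 genes with both pools. Its Odd peak at 216903145 to 216904215 of chromosome 2 held 195 tags and reached 152.4 (58.6 to 564.8), which exceeded 96.4% of the Odd list. Its Even peak at 216903146 to 216903885 held 43 tags and reached 75.2 (27.3 to 288.3). Both backgrounds came from the same 4 control tags in a window of 1 kb, or 1.04 and 1.16 control tags per fragment length. By the tags alone PECR ranked below IRX4, SOCS6, DELE1 and CPNE1 in the Odd list. A further Even peak in exon 7, at 216908702 to 216908991, held 3 tags at the genome-wide background and ranked 5014.

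In coding sequence, the Odd fold enrichment was also larger in WASHC3, with a ratio of Even to Odd of 0.432. This ratio was closer to equality in ZNF335 and CPNE1 and was reversed in COX15. Its median over all 120 pairs of overlapping peaks was 0.636, so a larger Odd value was not particular to 3′ UTR sites. ZNF335, a zinc finger protein of histone H3 lysine methyltransferase complexes, was the only one of the 8 genes with more than 1 Odd peak. Its peak around exon 12 of 28, at 44588756 to 44589762 of chromosome 20, held 188 tags against 6 control tags, a fold enrichment of 25.5 (11.5 to 70.3). The Even peak there, at 44588924 to 44589704, held 82 against 7 and reached 23.8 (11.0 to 60.9). The peak at exon 10, at 44590504 to 44591009, held 87 tags against 6 and reached 11.8 (5.20 to 33.0). Its Even counterpart, at 44590474 to 44590997, held 35 against 6 and reached 11.8 (4.92 to 34.4). These summits were 3 nt apart, the shortest distance in the set. The third Even peak, at exon 9, at 44591901 to 44592422, held 12 tags and reached 10.5 (3.94 to 29.6) without an Odd peak. It also had the SNHG5 run, 89 nt after its summit, in an intron and so not in the spliced transcript.

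CPNE1 is a copine, a protein that binds phospholipid membranes when calcium is present. Its Odd peak at 34218686 to 34220857 of chromosome 20 was the broadest of the set at 2172 nt and touched 11 of 16 exons. It held 621 tags, the most of any of these Odd peaks, and its Even peak at 34218836 to 34220547 held 293, the most of these Even peaks. The control was also high here, with 128 control tags in 1 kb for both lists. The fold enrichment was therefore moderate, 15.2 (12.5 to 18.5) for Odd and 16.0 (13.0 to 19.9) for Even, with the narrowest intervals of the set. The summits were 221 nt apart, in exon 5 for Odd and exon 6 for Even, the largest distance in the set. The peaks also overlap exons of an annotated read-through gene on the same strand, ENSG00000272897, whose reads cannot be told apart from those of CPNE1.

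WASHC3 is a subunit of the WASH complex, which promotes actin assembly on endosomes. Its Odd peak at 102406662 to 102407109 of chromosome 12 held 104 tags against 2 control tags, a fold enrichment of 42.3 (11.4 to 353.6). Its Even peak at 102406633 to 102407108 held 27 against 3 and reached 18.3 (5.62 to 94.0). The Odd summit lay at 96.7% of the coding sequence and the Even summit 9 nt past its end, so that the label of the region differs although the summits are 28 nt apart. The other Even peaks, at 102419762 to 102420063 and 102433455 to 102433744, held 6 tags each with summits in intron 5, and reached 12.2 (1.48 to 559.7) and 14.0 (2.99 to 86.4).

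COX15 acts in the synthesis of heme A for cytochrome c oxidase. Its Odd peak at 101487086 to 101487499 of chromosome 10 was the weakest of the set. It held 65 tags against 9 control tags, a fold enrichment of 5.87 (2.91 to 13.4), and its p was smaller than that of 6.41% of the Odd list. The Even peak, at 101486890 to 101487588, held 89 tags against 9 and reached 20.1 (10.1 to 45.3). A second strong Even peak at exon 2, at 101489068 to 101489739, held 97 tags against 12 and reached 16.4 (8.97 to 32.8). It ranked 280 by p and is the only one among the best Even peaks in these genes that no Odd peak overlapped. It holds the sense copy of the SNHG5 run, 117 nt before its summit. The exon 1 peak, at 101491488 to 101491828, held 17 tags against 9 and reached 3.83 (1.61 to 9.75). These peaks also overlap a read-through gene on the same strand, ENSG00000285932, with its exons, and the gene body of CUTC on the other strand.

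All 9 Odd peaks were overlapped by 1 of the best Even peaks, in all 8 genes. Over the whole Odd list 13.1% of peaks were, and a shared peak in an exon was found in 0.203% of protein-coding genes. These shares are background only, since the study chose these genes with the peak lists in hand. An exonic peak was found in 2.04% of protein-coding genes in the Odd list, in 13.2% in the whole Even list and in 1.86% among the best Even peaks. GAPDH, a reference gene with abundant mRNA, had 0 peaks in either list, and SPATS2, the study's leading target, had 13 Odd peaks with fold enrichments from 3.72 to 30.1. Of the 16 Even peaks in the 8 genes, 10 were among the best, and the other 6 overlapped no Odd peak.

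Agreement of position was close in most regions. The distance between the Odd and Even summits had a median of 16 nt over the 9 pairs, against 26.5 nt over all 120 pairs of overlapping peaks. CPNE1 was the only pair more than 100 nt apart. When the overlap had to cover at least 50% of both peaks, all 9 still overlapped.

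**Figure D3:**
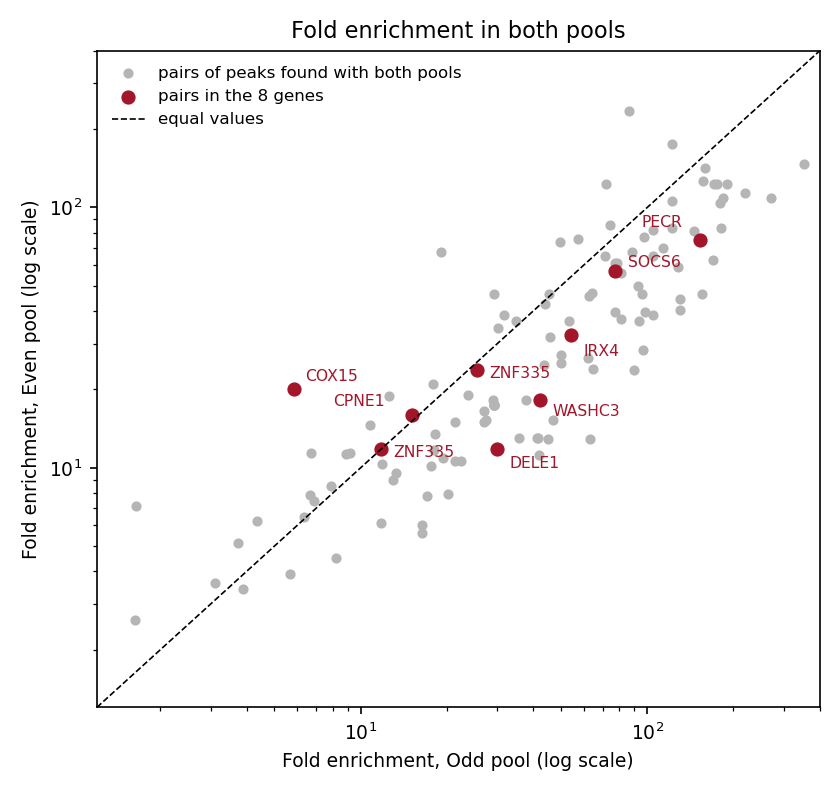
Fold enrichment in the Odd (x axis) and Even (y axis) pool on log axes for the 120 overlapping pairs of peaks in grey and the 9 pairs in the 8 genes in red, with the line of equal values. The 9 pairs lie among the others, with 6 below the line, and COX15 lies farthest above it, at 5.87 and 20.1.

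Agreement of size was looser. Fold enrichment was higher with Odd in 6 pairs and higher with Even in 3, and both counting intervals overlapped in all 9. Both fold enrichments share the control libraries, so the tags were also set side by side without the control. The tags at the summit, as a share of all tags kept for that pool, were lower with Even in IRX4, with a ratio of Even to Odd of 0.600 (0.450 to 0.791). The ratio was 0.740 (0.619 to 0.880) in SOCS6, 0.529 (0.403 to 0.687) in DELE1, 0.648 (0.408 to 0.997) in WASHC3 and 0.550 (0.386 to 0.769) in PECR. These 5 intervals lie below 1, as does the median of 0.756 over all 120 pairs.

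In the other genes the ratio was not below 1. It was 1.09 (0.829 to 1.42) in exon 12 of ZNF335 and 1.00 (0.658 to 1.50) in exon 10, where both intervals hold 1. It was 1.18 (1.02 to 1.36) in CPNE1 and 3.42 (2.45 to 4.78) in COX15. Tags at a summit are those within a fragment length, which was 260 nt for Odd and 290 nt for Even. The limit on duplicates also differed between the pools. The ratios were adjusted for neither, so the intervals of CPNE1 and WASHC3, which end close to 1, do not settle a difference. The COX15 interval overlaps none of the other 8. The Even library was 1 sample and the Odd libraries were pooled, so variation between libraries cannot be told apart from the pools.

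**Figure D4:**
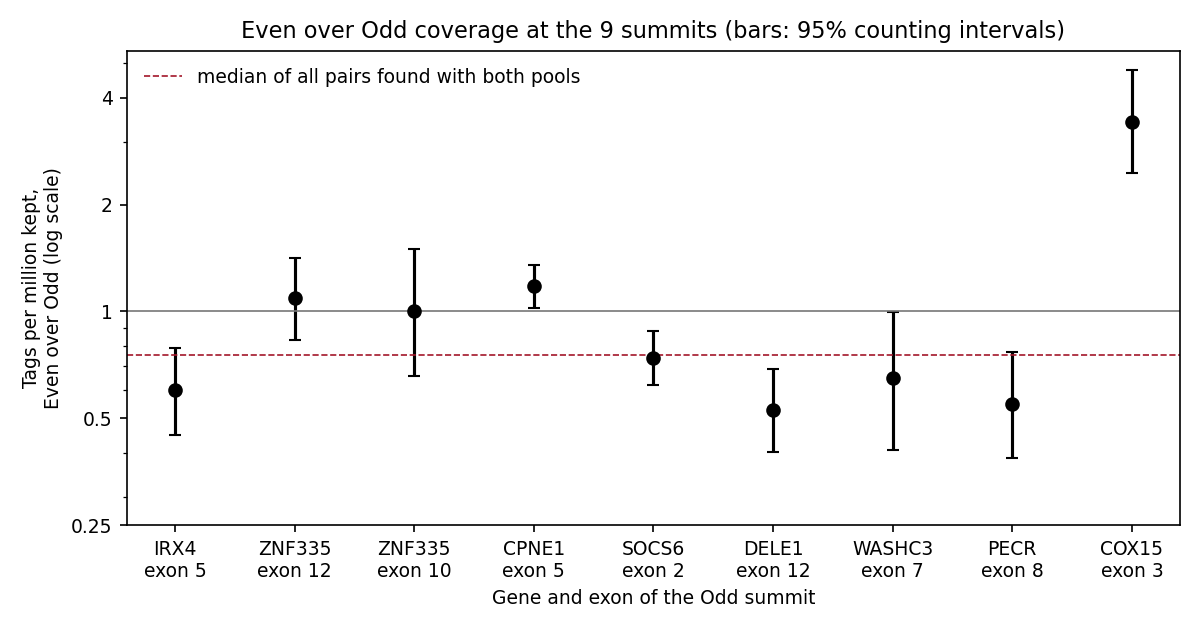
Ratio of Even to Odd tags, each as a share of the tags kept for its pool, on a log axis, at the 9 summits, with exact 95% counting intervals, a line at 1 and a dashed line at 0.756, the median of all 120 pairs. The 5 regions with an interval below 1 are all 4 in 3′ UTRs and that of WASHC3, in coding sequence, and COX15 stands at 3.42. The ratios are not adjusted for fragment length or for the limits on duplicates.

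The related genes of each family and complex were looked up in the same lists. They were the other Iroquois factors, copines, SOCS proteins and WASH complex subunits, factors of cytochrome c oxidase assembly, enzymes of peroxisomal fatty acid metabolism, the relay of mitochondrial stress around DELE1 and the histone H3 lysine 4 methyltransferase complex around ZNF335. Of these 60 genes, 1 had an exonic Odd peak, 15 had an exonic peak in the whole Even list and 3 had one among the best Even peaks. The shares were 1.67%, 25% and 5%, beside 2.04%, 13.2% and 1.86% of all protein-coding genes. None had a peak found with both pools.

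The exonic Odd peak was in KMT2C, a histone H3 lysine 4 methyltransferase, with 44 tags in coding exon 4 and a fold enrichment of 11.9 (3.82 to 60.0). KMT2C also had a stronger Odd peak in intron 1, with 54 tags and a fold enrichment of 84.4 (22.3 to 714.6). Among the best Even peaks, those of RBBP5 and YME1L1 were in the last exons, with summits in 3′ UTRs. RBBP5, a core subunit of the methyltransferase complex, had 112 tags and a fold enrichment of 32.5 (15.2 to 82.6). YME1L1, a protease of the inner mitochondrial membrane, had 77 tags and 12.0 (8.18 to 17.7). Of these peaks of KMT2C, RBBP5 and YME1L1, that of YME1L1 alone had GAGGCCAG within 250 nt of its summit. No other subunit of the WASH complex and no other enzyme of the PECR list had an Odd peak. In the whole Even list 3 of the 5 other subunits and 4 of the 8 other enzymes had an exonic peak. WASHC3 and PECR were chosen with their peaks known, and 2.04% of all protein-coding genes had an exonic Odd peak, so this is a description.

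Base composition was spread widely. The 501-nt windows had a GC content from 32.7% in SOCS6 to 61.1% in exon 10 of ZNF335, against quartiles of 36.7% and 52.5% over the 434 Odd windows with an exonic summit. SOCS6, WASHC3, COX15 and PECR lay below the median of 42.5%, and the other 5 regions above it.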

How the data were processed

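Per the methods and the submitters' processing notes, the authors aligned reads with STAR to hg19, and peaks were then called by MACS 2.0.9 at a p of 0.001, with both control libraries merged as the background. Odd libraries were pooled and filtered for reproducibility with IDR, whereas the Even list is unfiltered because 1 replicate failed. The deposited pileup is a coverage signal at the summit, the deposited fold enrichment is its ratio to the local control background, and the deposited −log10 p-value was used to rank peaks. The q columns were not used, and 0 columns were left unused for want of a sample.

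The pileup was turned back into tags with the scaling that the file headers give, which gave whole tags for 100% of the peaks of both lists. The background was computed as scaled tags over fold enrichment. With it, the deposited p was recovered to within 2% for 100% of 845 Odd and 99.9% of 8495 Even peaks with a finite p. Each background was then read as a whole number of control tags in a fragment length of 260 nt for Odd or 290 nt for Even, in 1 kb or 10 kb, or as the genome-wide value. Intervals of fold enrichment and of ratios of tags are exact conditional binomial intervals at 95%.

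Summits were placed on 1 reference transcript per gene of GENCODE version 44 on GRCh37, an annotation later than the study. Sharing means an overlap of at least 1 bp with the 905 Even peaks of smallest p. Capture oligonucleotides were placed on SNHG5 by exact match of the letters read from the supplement. Sequences were read with pysam 0.24.0 after indexing with samtools 1.23.1. Python 3.11.15, numpy 2.4.6, pandas 2.3.3, scipy 1.17.1 and matplotlib 3.10.9 were used. Peak overlap, the longest match, transcript regions, the interval of fold enrichment and the reading of control tags were tested on simulated or constructed data. No statistical test was made, since no list holds a value per library. The genes named are the 8 members, SPATS2, GAPDH, SNHG5, genes that overlap a member peak and genes of the family lists, of which 1 is not reported here by name. The members and the lists were chosen with earlier results of these data known, and the SNHG5 run was chosen after its counts were seen.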

Additional observations from a re-analysis of the deposited data

How the results depend on the processing

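Of 35 alternatives, 32 gave a value within 1.5 times the main one. When the best Even peaks were taken by fold enrichment in place of p, 3 Odd peaks in 3 of the 8 genes were shared (IRX4, SOCS6 and PECR), since that ranking needs a fold enrichment of at least 25.6 and the others had less with Even. With both lists cut to the study's conservative number of peaks, 6 peaks in 6 genes were shared, and WASHC3, COX15 and exon 10 of ZNF335 were not. With a pseudocount of 1 in the background, its median over the 9 peaks moved from 6 to 5.22 control tags for Odd and from 6 to 5.08 for Even, outside the counting interval of 1 peak in each list, and that formula gave the deposited p to within 2% for 8.85% of Odd and 5.05% of Even peaks. With gene bodies in place of exons, 2 family genes had an Odd peak, as EIF2S1 has 1 in an intron. The SNHG5 run was within 100 nt of 7 Odd summits. This alternative, the longer runs, the sense strand alone (8 summits) and the use of all SNHG5 transcripts or of the one the methods name were chosen after seeing the data.

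No paired analysis was possible because the lists hold no value per library, and no replicate was left out for the same reason. Depth limits the weak Even peaks most. The 6 outside the best rest on 3 to 17 tags, and fold enrichments over 2 to 4 control tags have wide intervals, as in WASHC3, where the Odd value of 42.3 has bounds of 11.4 and 353.6.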
